A study of Mus musculus with 14 samples.

Results

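The genes described here encode the subunits of potassium channels. They are all protein-coding genes of the bulk table whose symbol starts with Kcn and whose counts sum to at least 10 over the 12 bulk libraries, which gives 90 of 94 such genes and 90 of 40481 genes in the table. By symbol they comprise 39 alpha subunits of voltage-gated channels, 12 accessory subunits of those channels, 14 inward rectifiers and 13 two-pore-domain channels. The rest are 5 subunits of the large-conductance calcium-activated (BK) channel, 4 small and intermediate conductance calcium-activated channels and 3 channels with Kcnt or Kcnu symbols. Of these members, 85 passed the filter on low counts and were tested. Kcne2, Kcnj16, Kcnk18, Kcnmb4 and Kcnv2 did not.

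The libraries were made from the muscularis of C57BL/6 mice, the outer muscle layers of the intestine together with the enteric nerves and interstitial cells they hold. Bulk RNA was sequenced from colon and jejunum of mice labelled "Carmn iKO" (KO) and "WT mTmG" (WT), with 3 libraries in each of the 4 groups, and single nuclei were sequenced from colon, with 1 library per genotype. Carmn is a long noncoding RNA gene of smooth muscle. The age and sex of the mice, the driver and method of the deletion, any treatment, and whether libraries came from separate animals are not stated in the labels read here. P-values therefore measure the spread between these libraries only.

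Potassium channels let potassium leave the cell and so hold the membrane of a muscle cell at a negative voltage. In gut muscle, calcium-activated channels open when calcium rises, voltage-gated channels repolarise the cell after each electrical event, and ATP-sensitive inward rectifiers open when ATP is low. Nitric oxide and purines released by enteric nerves relax the muscle in part through such channels.

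The library totals ran from 24254905 to 44315104 counts. Carmn was at 251.6, 171.5 and 351.5 CPM (counts relative to the library's total, scaled by the TMM method for bulk throughout) in the WT colon libraries and at 461.2, 303.9 and 717.9 in those labelled KO. In jejunum it was at 240.3, 205.8 and 326.2 CPM in WT and at 996.1, 817.5 and 909 in the libraries labelled KO. The bulk libraries labelled KO therefore go against their label at this gene, and every genotype comparison below is one of labels. In the nuclei the direction was that of the label, with Carmn at 661 CPM in WT and 220 in KO, where CPM are UMIs relative to all UMIs of the same nuclei. A UMI, or unique molecular identifier, stands for 1 captured RNA molecule. The summed fibroblast markers were at 13034 CPM in the KO colon library t4 against 2835 to 6160 in the other colon libraries, and the summed smooth muscle markers were at 88915 CPM in the KO jejunum library m1 against 37738 to 44631 in the other jejunum libraries. The single markers were not uniform. In t4 the collagens Col1a1, Col1a2 and Col3a1 (4757, 2583 and 4442 CPM) and Pdgfra had their highest colon values, while Dcn, Lum and Fbln1 (712, 66.7 and 242 CPM) did not. In m1 the smooth muscle markers Lmod1 and Synpo2 (590 and 2833 CPM) lay within the range of the other jejunum libraries. The summed epithelial markers were at 1076, 2088 and 56.5 CPM in the WT colon libraries t1, t6 and t7 and at 524 to 748 in those labelled KO. In jejunum they were at 257 to 720 CPM. The part of this uneven epithelial RNA in the channel levels was not tested. In bulk tissue, fewer cells of a type and less RNA per cell cannot be told apart.

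Kcnj8 had the highest level per exon length of all members in both WT segments, followed by Kcnmb1 in colon and by Kcnh2 in jejunum. On the RPKM scale (reads relative to the exon length and to the library's total), Kcnj8, the pore of the ATP-sensitive channel of smooth muscle, was at 30.2 ± 9.99 (SD, n = 3) in WT colon and 50.01 ± 11.1 in WT jejunum. Kcnmb1, the beta subunit that raises the calcium sensitivity of BK channels in smooth muscle, was at 29.5 ± 5.90 RPKM in WT colon and 28.4 ± 2.39 in WT jejunum. Its pore subunit, Kcnma1, was at 13.1 ± 2.54 RPKM in colon and 10.0 ± 0.820 in jejunum. Kcnn3, the small-conductance channel SK3, was at 14.0 ± 3.12 RPKM in colon and 12.7 ± 0.600 in jejunum. In WT colon the levels of Kcnj8, Kcnmb1, Kcnf1 (27.2 ± 11.3 RPKM) and Kcnd3 (22.9 ± 5.95) differed by less than the spread of Kcnf1, and Kcnh2 followed at 17.0 ± 3.21. Kcnf1 encodes an electrically silent subunit, Kcnd3 the transient-current channel Kv4.3 and Kcnh2 the ERG channel.

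In WT jejunum, Kcnj8 was followed by Kcnh2 (39.6 ± 10.96 RPKM), Kcnip2 (34.8 ± 4.25), Kcnmb1 and Kcnk3 (25.9 ± 5.99). Kcnip2 encodes a calcium-binding partner of Kv4 channels, and Kcnk3 encodes the acid-sensitive leak channel TASK-1. Kcnj8 and Kcnh2 differed by less than the spread of either, and Kcnip2 and Kcnh2 by less than the spread of Kcnh2 but not that of Kcnip2. The median member was at 1.22 RPKM in WT colon and 1.01 in WT jejunum. In colon 49 of 90 members reached 1 RPKM on average and 10 reached 10 RPKM, and in jejunum 46 and 12 did. The counts of Kcnma1, Kcnd3, Kcnk3, Kcnip4, Kcng2 and Kcnn2 are uncertain, since an exon of each overlaps another gene and the labels do not say if strand was used in counting. This applies to 28 of the 90 members.

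The stretches upstream of 5 of the named members are shown next, with their content of CpG, the dinucleotide that can be methylated. That of Kcnma1, which held 31 CpG, overlapped an exon and is not shown. Each is the 250 bases before the RefSeq start in build GRCm38.p6, written 5′ to 3′ along the gene's strand, with every CpG in capitals. Kcnmb1 lies at chr11:33962763-33963012 on the plus strand, inside the span of Kcnip1 on the minus strand. The others lie on the minus strand, Kcnj8 at chr6:142571615-142571864, Kcns1 at chr2:164171114-164171363, Kcnip2 at chr19:45816064-45816313 and an internal start of Kcnip4 at chr5:49285660-49285909.
Kcnmb1: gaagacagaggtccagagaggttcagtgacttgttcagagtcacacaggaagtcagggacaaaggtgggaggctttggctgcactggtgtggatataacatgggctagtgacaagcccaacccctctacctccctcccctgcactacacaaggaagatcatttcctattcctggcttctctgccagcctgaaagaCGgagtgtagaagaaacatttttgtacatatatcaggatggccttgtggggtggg
Kcnj8: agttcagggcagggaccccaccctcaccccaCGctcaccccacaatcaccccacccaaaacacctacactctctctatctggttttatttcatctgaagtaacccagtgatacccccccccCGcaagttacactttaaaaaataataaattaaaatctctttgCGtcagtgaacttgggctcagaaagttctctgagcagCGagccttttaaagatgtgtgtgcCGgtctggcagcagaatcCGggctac
Kcns1: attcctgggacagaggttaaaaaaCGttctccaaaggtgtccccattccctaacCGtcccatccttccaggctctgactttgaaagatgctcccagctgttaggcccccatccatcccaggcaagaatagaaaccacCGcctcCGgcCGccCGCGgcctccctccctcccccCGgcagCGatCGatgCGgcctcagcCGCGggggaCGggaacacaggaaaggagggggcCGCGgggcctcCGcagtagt
Kcnip2: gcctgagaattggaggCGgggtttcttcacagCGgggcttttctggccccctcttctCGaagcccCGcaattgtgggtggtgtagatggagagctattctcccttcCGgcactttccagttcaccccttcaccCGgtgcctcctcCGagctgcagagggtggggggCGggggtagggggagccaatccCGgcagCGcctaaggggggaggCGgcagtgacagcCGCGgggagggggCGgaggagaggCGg
Kcnip4: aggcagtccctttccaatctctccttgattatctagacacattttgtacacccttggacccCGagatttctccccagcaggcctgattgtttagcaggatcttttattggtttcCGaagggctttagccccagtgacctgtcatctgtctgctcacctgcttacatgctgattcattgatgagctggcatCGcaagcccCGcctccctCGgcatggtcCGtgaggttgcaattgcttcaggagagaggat

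Kcnmb1 held 1 CpG, Kcnj8 and Kcnip4 held 6 each, Kcnip2 held 15 and Kcns1 held 17, against a median of 8 over the 91 windows found for 66 members and of 6 over all 32851 windows of the table. A CArG box (CC, then any mix of A and T over 6 bases, then GG), the motif bound by serum response factor, was searched on both strands of the windows of 300 bases, which add 50 bases after the start. It was in 0 of the 91 member windows and in 1.63% of all windows. An accessible region listed for the nuclei overlapped a window of 20 of the 66 members (30.3%) in the WT library and of 15 (22.7%) in the KO library, and of 10 in both. Over all 27025 genes of the table the shares were 38.4% and 32.7%. The windows of Kcnma1, Kcnmb1, Kcnn3, Kcns1 and the shown start of Kcnip4 were overlapped in the WT library and not in the KO library, that of Kcnj8 in both, and that of Kcnip2 in neither. Regions were called separately in each library, so a region listed in 1 library is not a tested difference.

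The comparison of colon with jejunum asked which channel subunits separate the gut segments. Between WT libraries 5 of 85 tested members passed the threshold of an adjusted p under 0.05 (edgeR's quasi-likelihood test, Benjamini-Hochberg over 20886 genes), where 1.56% of all genes did. Kcns1 and Kcnip4 were higher in colon, and Kcng2, Kcnip2 and Kcnmb2 were higher in jejunum. None of these encodes a pore that conducts alone: Kcns1 and Kcng2 are silent subunits that modify other voltage-gated channels, Kcnip2 and Kcnip4 bind Kv4 channels, and Kcnmb2 is the BK beta subunit that confers inactivation.

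Kcns1 was at 20.1, 8.90 and 22.1 CPM in the WT colon libraries and at 0.11, 0.03 and 0.11 CPM in the WT jejunum libraries, where 3, 1 and 4 counts were found. The groups were far apart, with a fitted log2 difference of 7.65 (SE 1.02, adjusted p = 0.00623, edgeR), which at so few counts depends on the prior count of the fit. This call held in all 20 alternatives, with adjusted p up to 0.0415. Kcnip2 ran the other way, at 1.85, 1.76 and 2.34 CPM in WT colon and 118, 137 and 108 CPM in WT jejunum. Its log2 difference was −5.93 (SE 0.996, adjusted p = 0.0189, edgeR). The call was lost in 7 of 20 alternatives, with adjusted p up to 0.159, among them leaving out any 1 WT colon library or WT jejunum t1 or t6.

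Kcnip4 was at 38.5, 41.4 and 46.9 CPM in WT colon and 3.83, 2.16 and 5.01 CPM in WT jejunum, with no overlap. Its log2 difference was 3.53 (SE 0.604, adjusted p = 0.0192, edgeR), and the call was lost without WT colon t1 or any 1 of the WT jejunum libraries, with adjusted p up to 0.0992. Kcng2 was at 2.63, 2.75 and 3.36 CPM in WT colon and at 15.3, 24.97 and 12.7 CPM in WT jejunum, a log2 difference of −2.60 (SE 0.408, adjusted p = 0.0118, edgeR). It passed the threshold in 18 of 20 alternatives. Kcnmb2 had 0, 2 and 6 counts in WT colon and 113, 171 and 140 counts in WT jejunum, with an adjusted p of 0.0369 (edgeR). That call was lost without any 1 of WT colon t1, WT colon t6, WT jejunum t1, t6 or t7 or KO jejunum t1, with adjusted p up to 0.140.

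Between the libraries labelled KO, 3 members passed the threshold, where 1.29% of all genes did. Kcnip2 was at 0.89, 0.42 and 1.49 CPM in colon and at 3.15, 94.7 and 74.0 CPM in jejunum, a log2 difference of −5.91 (SE 1.01, adjusted p = 0.0241, edgeR). The low jejunum value belonged to library m1. In the same library Kcns1 was at 1.02 CPM against 0.16 and 0.09 in the other jejunum libraries labelled KO, and Kcnip4 at 11.1 against 2.80 and 3.21, so that its values for these 3 members lay nearer to those of colon than the values of the other jejunum libraries did. Kcnv1, another silent subunit, was at 4.86, 1.91 and 3.77 CPM in colon and 0.81, 1.04 and 1.18 in jejunum (log2 difference 1.79, SE 0.381, adjusted p = 0.0484, edgeR). Kcnab2, a cytoplasmic beta subunit of voltage-gated channels, was at 62.5, 43.3 and 35.5 CPM in colon and 25.6, 21.3 and 18.8 in jejunum (log2 difference 1.10, SE 0.237, adjusted p = 0.0489, edgeR). In library m1, unlike the 3 members above, Kcnv1 was below and Kcnab2 within the range of the other jejunum libraries. Kcnmb2 had 0, 0 and 7 counts in colon and 19, 75 and 149 in jejunum and missed the threshold with an adjusted p of 0.0562. Kcnip2 passed in 11, Kcnab2 in 7 and Kcnv1 in 4 of 20 alternatives. Without KO colon m1, KO colon t6, KO jejunum t1 or KO jejunum t4 the number of members called was 0, without KO jejunum m1 or KO colon t4 alone it was 5, and without that library and KO colon t4 together it was 7. Both libraries stand apart in their markers, and the second of these fits was chosen after the data were seen. The share of all genes called under these fits is not given here, so the counts show only how the calls moved.

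**Figure D1:**
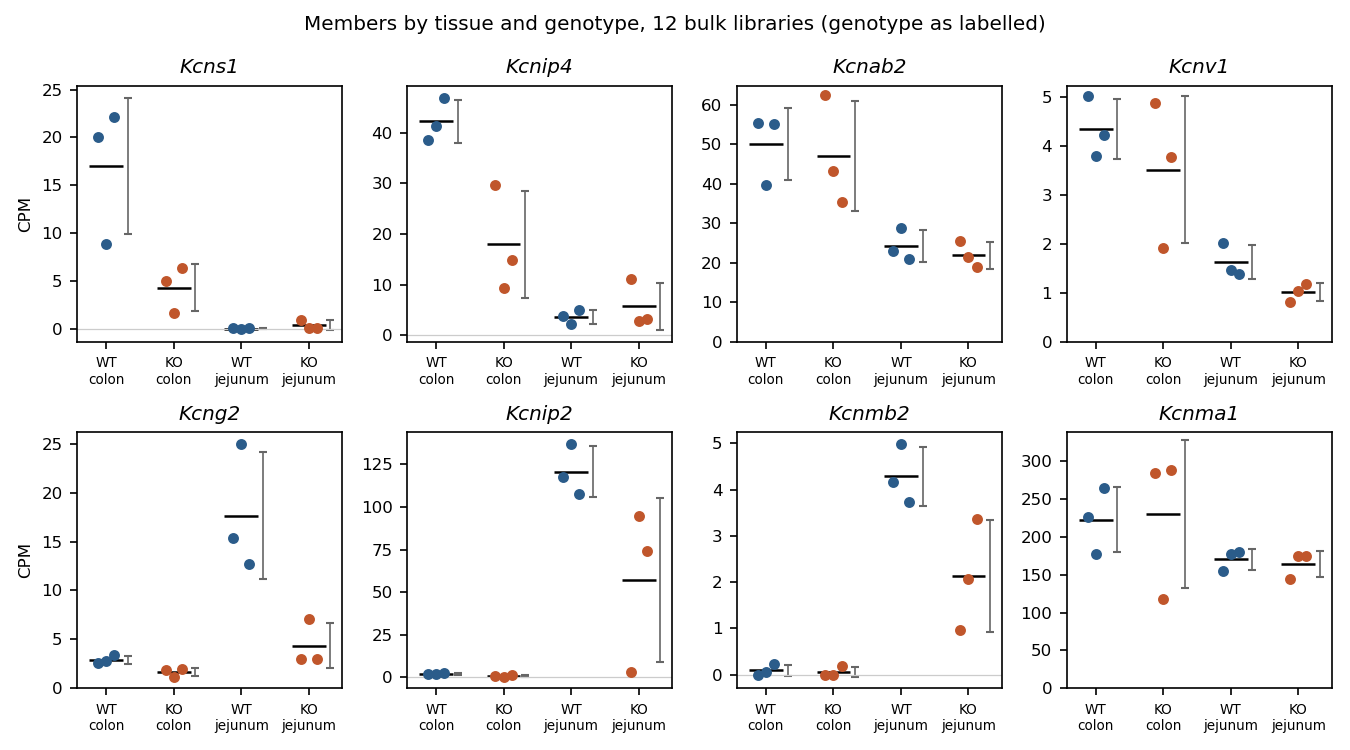
CPM (linear axis) of 8 members in the 12 bulk libraries, with 1 point per library, a line at the group mean and a bar of 1 SD beside it. Kcns1, Kcnip4, Kcnab2 and Kcnv1 sit higher in colon, Kcng2, Kcnip2 and Kcnmb2 sit higher in jejunum, 1 KO jejunum library is at 3.15 CPM of Kcnip2, and Kcnma1 is shown as the BK pore.

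In the WT libraries, Kcnd3 had a log2 difference between colon and jejunum of 1.05 (adjusted p = 0.182, edgeR), Kcnf1 one of 1.11 (adjusted p = 0.247) and Kcnh2 one of −1.22 (adjusted p = 0.260). None of the 3 passed the threshold, although the values of the segments did not overlap for any of them. Kcnd3 was called without KO colon t4 (adjusted p = 0.0379, edgeR), from the compared libraries alone (0.0401) and without both libraries that stand apart (0.0179), and Kcnh2 under the last 2 of these (0.0285 and 0.0156). The BK pair overlapped between the segments, with log2 differences of 0.39 (SE 0.294) for Kcnma1 and 0.06 (SE 0.241) for Kcnmb1. Of the partner proteins listed with the channels, Dpp6, a companion of Kv4 channels, was higher in colon among the libraries labelled KO (log2 difference 1.08, adjusted p = 0.0316, edgeR), and 0 of 7 tested partners passed in WT. Among 13 genes of calcium and cGMP signalling upstream of these channels, 3 passed in WT and 4 in the libraries labelled KO. P2ry1, the purine receptor, was higher in colon in both (1.66 and 1.53), and Trpc6, a cation channel, was lower in both (−1.999 and −1.81).

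The genotype comparison in colon called 0 of 85 members by edgeR, where 0.388% of all genes were called. At an unadjusted p under 0.05 there were 9 members, against 14.5% of all genes. DESeq2 called 2 members, Kcne4 and Kcnj8, where it called 5.01% of all genes, and limma voom called 0, where it called 0.455%. In 9 members the values of the groups did not overlap, which is 10.6% of those tested and below the 19.2% of all genes. The median log2 difference was −0.09 over the members and 0.00 over all genes, with 36 members at higher and 49 at lower levels under the KO label.

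Kcne4, a single-pass subunit that inhibits several voltage-gated channels, had the smallest p in colon. It was at 10.3, 16.0 and 8.70 CPM in WT and at 47.7, 194 and 33.1 CPM in the libraries labelled KO. All KO values lay above all WT values, and library t4 was the highest. The log2 difference was 2.97 (SE 0.645, adjusted p = 0.0923, edgeR). Without KO colon t4 the difference was 1.79 (adjusted p = 0.1075), and without KO colon t4 and KO jejunum m1 it was 1.81 (adjusted p = 0.0419). In jejunum Kcne4 was at 28.6, 31.8 and 27.0 CPM in WT and 62.8, 20.4 and 47.2 in the libraries labelled KO, which overlapped.

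Kcnj8 differed in the same direction in both segments without passing the threshold. In colon it was at 88.3, 47.8 and 94.8 CPM in WT and 141, 236 and 144 in the libraries labelled KO. In jejunum it was at 158, 102 and 123 CPM in WT and 256, 215 and 329 in those labelled KO. The groups overlapped in neither segment. The log2 differences were 1.18 (SE 0.305, adjusted p = 0.129, edgeR) and 1.07 (SE 0.304, adjusted p = 0.175), and the alternatives gave adjusted p from 0.0140 to 0.324 in colon and from 0.0400 to 0.424 in jejunum. DESeq2 was the alternative with the lowest value in each. Abcc9, the sulfonylurea receptor that completes the channel with Kcnj8, was at 359, 293 and 432 CPM in WT colon and 509, 418 and 339 in KO colon, with a log2 difference of 0.22 (SE 0.231).

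None of the 4 tested BK subunits and none of the 4 small and intermediate conductance channels passed the threshold in either segment. Kcnmb1 was at 123, 99.4 and 149 CPM in WT colon and 96.8, 86.1 and 50.1 in the colon libraries labelled KO. These values did not overlap, with a log2 difference of −0.67 (SE 0.242, adjusted p = 0.236, edgeR). The pore Kcnma1 was at 226, 178 and 264 CPM in WT colon and 284, 117 and 288 in those labelled KO, a log2 difference of 0.05 (SE 0.293, adjusted p = 0.968). The sign of that value changed without KO colon m1, KO colon t6 or WT colon t6. Kcnn2, the small-conductance channel SK2, was at 19.7, 14.8 and 27.4 CPM in WT colon and 11.2, 2.88 and 8.74 in those labelled KO, a log2 difference of −1.44 (SE 0.527, adjusted p = 0.243). In jejunum it was at 11.2, 19.1 and 15.5 CPM in WT and 1.93, 7.45 and 5.46 in those labelled KO, again with no overlap (−1.62, SE 0.532, adjusted p = 0.226). Kcnn3 was at 180, 116 and 142 CPM in WT colon and 173, 157 and 77.1 in those labelled KO, which overlapped. In jejunum it was at 136, 136 and 125.4 CPM in WT and 440, 120 and 135 in those labelled KO, where the high value was that of m1, and without m1 the log2 difference went from 0.80 to −0.09.

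Other members with a small p in colon were Kcnt2, a sodium-activated channel, at 24.1, 19.95 and 19.2 CPM in WT and 18.1, 11.3 and 8.23 in the libraries labelled KO (log2 difference −0.75, SE 0.268, adjusted p = 0.235, edgeR), and the colon-rich Kcns1 and Kcnip4. Kcns1 was at 4.99, 1.67 and 6.38 CPM in colon libraries labelled KO, below all 3 WT values (log2 difference −1.97, adjusted p = 0.253). Kcnip4 was at 29.8, 9.37 and 14.9 CPM, also below all 3 WT values (−1.23, adjusted p = 0.339). Beside these values stood the smooth muscle markers, 8 of 8 lower in the colon libraries labelled KO with 0 called and a median log2 difference of −0.61, and a summed level of 33116 to 43914 CPM against 46976 to 68118 in WT. Their part in the results was not tested.

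**Figure D2:**
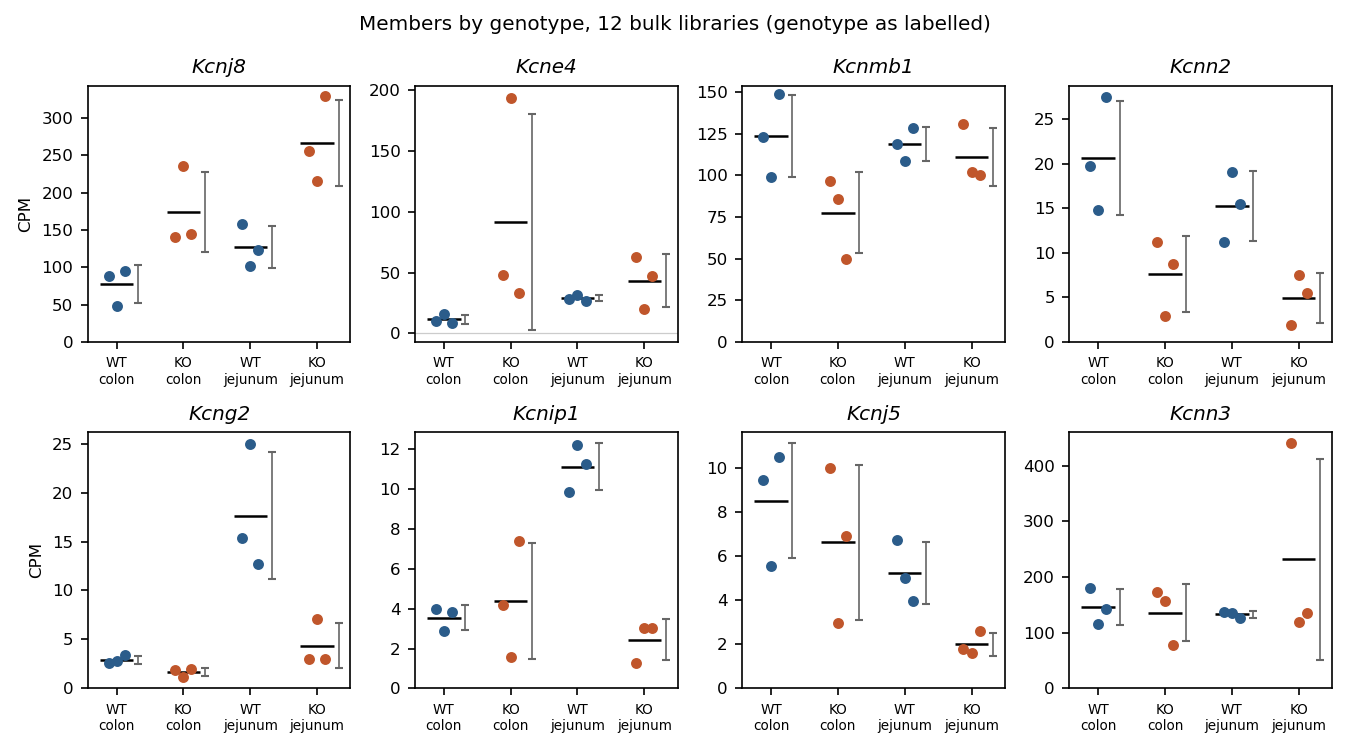
CPM (linear axis) of 8 members in the 12 bulk libraries by labelled genotype, with 1 point per library, a line at the group mean and a bar of 1 SD. Kcnj8 is higher in all libraries labelled KO of each segment, Kcnn2 is lower in all of them, and the single high values of Kcne4 (194 CPM, KO colon t4) and Kcnn3 (440 CPM, KO jejunum m1) can be seen.

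In jejunum the genotype comparison also called 0 of 85 members by edgeR, where 0.215% of all genes were called, and 11 members had an unadjusted p under 0.05, against 13.2% of all genes. DESeq2 called 4 members, Kcng2, Kcnip1, Kcnj5 and Kcnj8 (3.95% of all genes), and limma voom called 1, Kcng2 (0.364% of all genes). In 24 members (28.2%) the groups did not overlap, against 22.2% of all genes. Of these, 20 were lower in the libraries labelled KO, a direction in which 11.2% of all genes did not overlap. Over all tested members 64 were lower and 21 higher, with a median log2 difference of −0.34 against 0.02 over all genes.

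The lower values in the jejunum libraries labelled KO were spread over the subfamilies. Of the voltage-gated alpha subunits 31 of 38 were lower (median −0.54), and of their accessory subunits 9 of 11 were lower (median −0.15). Inward rectifiers were lower in 9 of 13 (median −0.15), two-pore-domain channels in 7 of 12 (median −0.18) and BK subunits in 3 of 4. Channels with Kcnt or Kcnu symbols were lower in 3 of 3 and small and intermediate conductance channels in 2 of 4. No member of any subfamily was called. The markers of enteric neurons, which express many voltage-gated channels, were lower in 7 of 7 with a median of −0.43 and 0 called, and their summed level was 373 to 454 CPM in the libraries labelled KO and 478 to 596 in WT. The macrophage markers were higher in 6 of 6 (median 1.48, 0 called), with 320 to 780 CPM against 110 to 225. Their part in the lower channel levels was not tested.

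Kcng2 had the smallest p in jejunum, at 15.3, 24.97 and 12.7 CPM in WT and 2.99, 7.06 and 3.03 in the libraries labelled KO. The log2 difference was −2.01 (SE 0.398, adjusted p = 0.0740, edgeR), and 4 of 19 alternatives gave an adjusted p under the threshold, namely DESeq2, limma voom, leaving out KO colon t4 and leaving out KO jejunum t1. Kcnip1, a further Kv4 partner, was at 9.87, 12.2 and 11.3 CPM in WT and 1.27, 3.05 and 3.03 in those labelled KO (log2 difference −2.17, SE 0.503, adjusted p = 0.113), and was called by DESeq2, without KO colon t4 and without both libraries that stand apart. Kcnj5, a G protein-gated rectifier, was at 6.74, 5.01 and 3.97 CPM in WT and 1.78, 1.62 and 2.60 in those labelled KO (log2 difference −1.38, SE 0.437, adjusted p = 0.209). For all 3 genes every jejunum value labelled KO lay under every WT jejunum value. Kcnip2 was at 118, 137 and 108 CPM in WT and 3.15, 94.7 and 74.0 in the libraries labelled KO, which did not overlap either, but its spread gave an adjusted p of 0.603. The lower level of Kcng2 was not seen in jejunum alone. In colon it was at 2.63, 2.75 and 3.36 CPM in WT and 1.91, 1.18 and 1.95 in the libraries labelled KO, with no overlap. In the colon nuclei grouped below as smooth muscle-like, Kcng2 had 39 UMIs in WT and 1 in KO.

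The difference between the segments in the genotype comparison was itself tested and called 0 members by edgeR (0% of all genes), with 7 members at an unadjusted p under 0.05 (4.16% of all genes). DESeq2 and limma voom each called 0 members, where they called 0.217% and 0% of all genes. The 3 smallest p were those of Kcnip1 (difference of log2 differences 2.48, SE 0.694), Kcns1 (−4.15, SE 1.23) and Kcne4 (2.39, SE 0.859), each with an adjusted p of 0.941. In colon Kcnip1 was at 3.99, 2.86 and 3.82 CPM in WT and 4.19, 1.56 and 7.42 in the libraries labelled KO, which overlapped, unlike its values in jejunum.

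**Figure D3:**
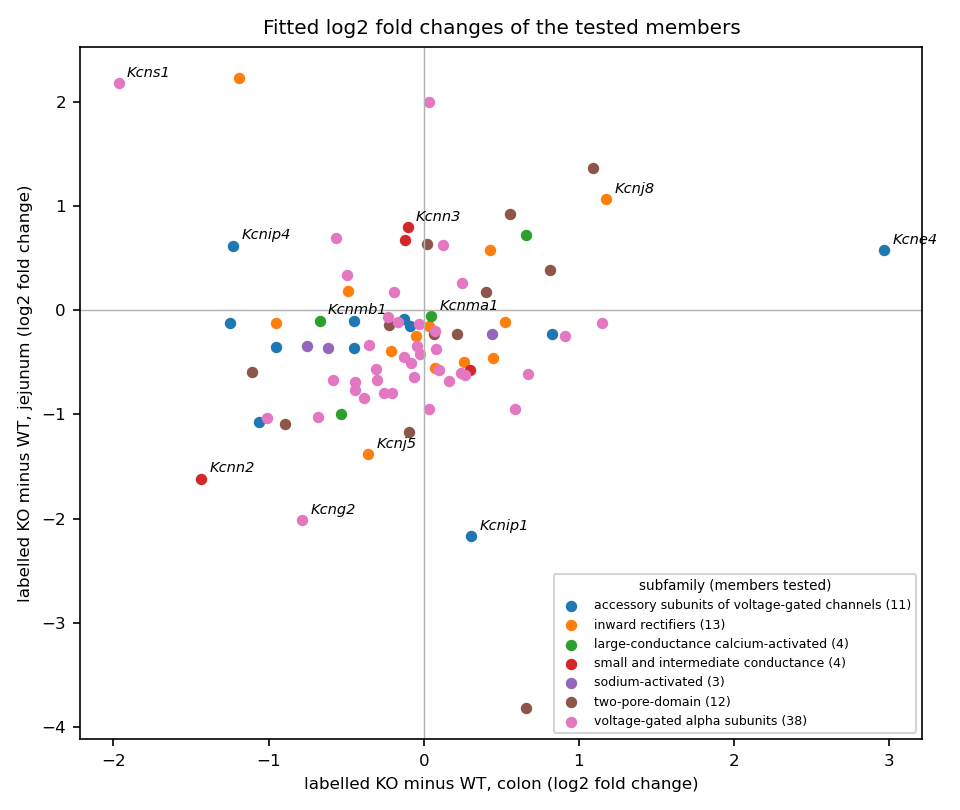
Fitted log2 difference between libraries labelled KO and WT in colon (horizontal) and jejunum (vertical) for the 85 tested members, 1 point per gene, coloured by subfamily. The group drawn as sodium-activated holds Kcnt1, Kcnt2 and Kcnu1. Kcnj8 lies to the upper right at 1.18 and 1.07, Kcnn2 to the lower left at −1.44 and −1.62, Kcne4 at 2.97 in colon, and most voltage-gated alpha subunits lie under the horizontal zero line.

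Of the 7 partner proteins tested, 0 passed the threshold in either genotype comparison. Dpp10, which like Dpp6 forms part of Kv4 complexes, was at 35.1, 36.7 and 40.9 CPM in WT colon and 8.47, 3.37 and 6.76 in those labelled KO (log2 difference −2.60, SE 0.503, adjusted p = 0.0607, edgeR). In jejunum it was at 9.69, 7.20 and 15.7 CPM in WT and 4.06, 1.02 and 1.49 in those labelled KO (−2.34, SE 0.509, adjusted p = 0.0956). The groups overlapped in neither segment. Of the 13 upstream genes, 12 were lower in colon libraries labelled KO and 1 passed, Pln, the inhibitor of the calcium pump of the sarcoplasmic reticulum. It was at 41.3, 38.4 and 41.5 CPM in WT colon and 10.0, 2.74 and 3.11 in those labelled KO (log2 difference −2.93, SE 0.426, adjusted p = 0.0240, edgeR). In jejunum 10 of 13 were lower and 0 passed.

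Nuclei showed which cells carried these transcripts. Of 3476 WT and 2164 KO barcodes, 2639 and 1594 passed the filters, and they were clustered without any Kcn gene, so that the members did not define the classes. There was 1 library per genotype, hence no test, and the intervals printed are exact 95% Poisson limits that cover counting error only. Smooth muscle-like nuclei numbered 893 in WT and 435 in KO and fell into 5 clusters. Of the WT nuclei 477 were in cluster 0, while the KO nuclei were spread, with 118 in cluster 0, 115 in cluster 1, 86 in cluster 2 (10 in WT) and 63 in cluster 19 (12 in WT). Clusters 2 and 19, in which Postn, a matrix protein gene, was among the leading genes, may thus stand for the KO library instead of a type.

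Of the 90 members, 55 reached 20 UMIs over both libraries in at least 1 named class, 36 of them in enteric neuron-like nuclei, 26 in smooth muscle-like and 25 in enteric glia-like nuclei. In WT these classes also held the most UMIs, at 1157791, 2351012 and 1297339, against 42973 in blood endothelial-like nuclei. The same floor is therefore a lower CPM in them, and the member counts follow class size in part. The class with the highest WT level was enteric neuron-like for 20 members and smooth muscle-like for 13. In WT the members took 3.05% of all UMIs of smooth muscle-like nuclei and 2.92% of those of enteric neuron-like nuclei, against 0.261% to 0.865% in the 8 other classes. A single gene, Kcnip4, made up 77.5% of the member UMIs in the first and 54.0% in the second. Nuclear RNA holds introns, so long genes such as Kcnip4 and Kcnma1 gather more UMIs, so levels are compared across classes within a gene, and a member is said to lead a class only by its UMIs, which are not scaled for length.

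In smooth muscle-like nuclei the leading members in WT were Kcnip4, at 23617 CPM (95% limits 23421 to 23814), and Kcnma1, at 3667 (3590 to 3746). Kcnma1 was at 1605 CPM in enteric neuron-like and 1285 in epithelial-like nuclei. The epithelial value came mostly from cluster 5, with 2069 CPM (1926 to 2219), against 340 (278 to 411) in cluster 3. Kcnmb1 reached 20 UMIs in the smooth muscle-like class only, with 33.6 CPM (26.6 to 41.9) in WT and 34.0 (25.5 to 44.5) in KO. Kcnj8 did so in smooth muscle-like nuclei, at 13.6 CPM in WT, and in mesothelial-like nuclei. In the latter it was at 15.1 CPM (6.53 to 29.8, from 8 UMIs) in WT and 43.4 (29.9 to 61.0, from 33 UMIs) in KO. No cluster met the markers of vascular mural cells, another cell type that expresses Kcnj8. At the levels of Kcnmb1 and Kcnj8 given here, the smallest classes could not reach 20 UMIs. Over all nuclei Kcnmb1 had 100 UMIs in WT and 79 in KO, of which 79 and 53 were in the smooth muscle-like class. Kcnj8 had 67 and 161 over all nuclei, and part of these lay outside the classes named for it.

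Kcnn3 led in fibroblast-like nuclei, at 2326 CPM (2131 to 2533) in WT and 1049 (954 to 1151) in KO. It was concentrated in cluster 9, whose leading genes included Pdgfra, the marker of the interstitial cells that respond to purines, with 3504 CPM in WT and 1948 in KO, while cluster 21 held 138 and 114. Cluster 9 supplied 97 of 132 WT but 71 of 134 KO nuclei of the class, and Kcnn3 was among its leading genes, though not used to cluster. Kcnq5, an M-current channel of nerve cells, led in enteric glia-like nuclei at 3698 CPM (3594 to 3804) in WT and 2614 (2486 to 2746) in KO. Kcnq3, also an M-current subunit, was second in enteric neuron-like nuclei, at 2075 in WT and 2457 in KO.

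Interstitial cell of Cajal-like nuclei, the pacemaker class, held Kcnip4 at 2903 CPM in WT and 6969 in KO, and Kcnip1 at 1554 (1322 to 1815) in WT and 805 (638 to 1001) in KO. Mesothelial-like nuclei, from the outer lining of the gut, were led by Kcnab1, a beta subunit of voltage-gated channels, at 1502 and 1336, followed in WT by Kcnb2, the delayed rectifier Kv2.2, at 857 in WT and 171 in KO. The class was made up of 237 nuclei of cluster 8 and 100 of cluster 10 in WT, and of 93 and 155 in KO. Kcnb2 was at 1007 CPM in WT and 354 in KO in cluster 8, and at 472 and 131 in cluster 10. In blood and lymphatic endothelial-like, macrophage-like and epithelial-like nuclei the leading members in WT were Kcnip4 and Kcnma1. Kcnip4 was at 5392 CPM in lymphatic endothelial-like, 3071 in macrophage-like, 2158 in epithelial-like, 1735 in fibroblast-like and 1001 in blood endothelial-like nuclei of the WT library, and at 1016, 1710, 89.9, 119 and 815 in the KO library. Free RNA from other nuclei adds to such levels, and its part was not tested.

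**Figure D4:**
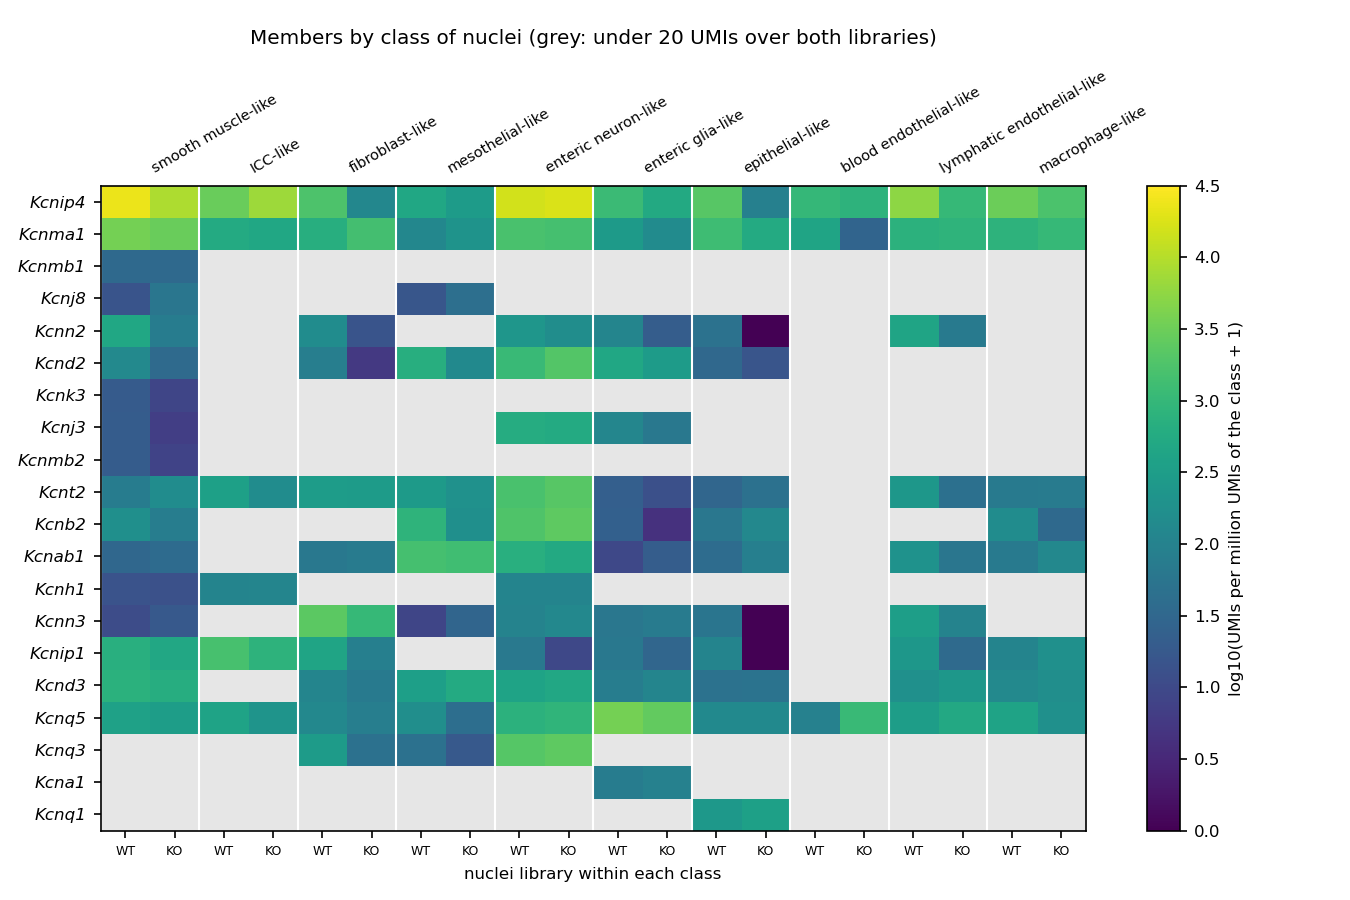
UMI-based CPM of 20 members (rows) in 10 classes of colon nuclei, with WT and KO columns side by side, as log10(CPM + 1). Grey marks fewer than 20 UMIs over both libraries. Kcnip4 is brightest in smooth muscle-like and enteric neuron-like nuclei, Kcnn3 in fibroblast-like, Kcnq5 in enteric glia-like and Kcnab1 in mesothelial-like nuclei.

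Between the libraries, 9 of the 21 members with at least 50 UMIs in smooth muscle-like nuclei differed at least 2-fold, where 8.92% of 7567 genes did. Only Kcnj8 was higher in KO, where 5.21% of genes were, and 8 were lower, where 3.71% of genes were. The floor of 50 UMIs applied to the sum of both libraries, and the class held 2351012 UMIs in WT and 1557013 in KO. Kcnj3, Kcnmb2 and Kcnk3, with 46, 46 and 43 UMIs in WT and 9, 11 and 12 in KO, passed it mainly through WT. The number of lower members therefore depends in part on the filter, and no conclusion is drawn from it. The median KO over WT ratio was 0.717 over the members and 1.03 over all these genes. Kcnj8 had 32 UMIs in WT and 88 in KO, a ratio of 4.15 (2.74 to 6.43). It was also higher in KO in mesothelial-like nuclei, and over all nuclei it was at 8.08 CPM in WT and 26.3 in KO. Of the 88 KO UMIs of Kcnj8 in smooth muscle-like nuclei 50 came from cluster 2. In cluster 1, which both libraries filled, it was at 29.4 CPM in WT and 45.2 in KO, from 13 and 10 UMIs. The next highest ratios were those of Kcnt2 (1.96, 1.61 to 2.39), Kcnn3 (1.70, 0.944 to 3.08, from 24 and 27 UMIs) and Kcnab1 (1.19, 0.824 to 1.71), and the last 2 intervals include 1. Of the 236 Kcnt2 UMIs in KO, 216 came from cluster 2. In the clusters that both libraries filled Kcnt2 was lower in KO, at 14.5 and 9.14 CPM in cluster 0, 276 and 36.2 in cluster 1 and 78.6 and 34.7 in cluster 16. The Kcnab1 ratio was 0.322 (0.145 to 0.645) at a clustering resolution of 0.5, so that its direction depends on which nuclei enter the class.

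Kcnn2 had the lowest ratio, 0.161 (0.132 to 0.195), with 1105 UMIs in WT and 118 in KO, or 470 and 75.8 CPM. It was lower in KO in each of the 5 clusters, for example at 671 and 195 CPM in cluster 0. Kcnn2 was lower in KO in all 6 classes in which it reached 20 UMIs. It was at 109 and 19.9 CPM in enteric glia-like, 232 and 162 in enteric neuron-like and 422 and 68.5 in lymphatic endothelial-like nuclei. In fibroblast-like nuclei it was at 154 and 14.0, and in epithelial-like nuclei at 48.0 and 0. The part of free RNA from other nuclei in these values was not tested. Kcnd2, the transient-current channel Kv4.2, had a ratio of 0.270 (0.199 to 0.360), Kcnj3, a G protein-gated rectifier, one of 0.295 (0.127 to 0.611, from 46 and 9 UMIs), and Kcnmb2 one of 0.361 (0.169 to 0.708, from 46 and 11 UMIs). In cluster 0 alone, which held most of their UMIs, Kcnd2 was at 175 CPM in WT and 104 in KO and Kcnmb2 at 30.6 and 21.3, both less than 2-fold apart.

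Kcnip4 had the most counts behind its ratio, 0.375 (0.368 to 0.382), with 55524 UMIs in WT and 13787 in KO. It was lower in KO in all 5 clusters, at 24751 and 11791 CPM in cluster 0, 22131 and 15343 in cluster 1, 14984 and 5463 in cluster 2, 23343 and 11955 in cluster 16 and 10988 and 5118 in cluster 19. In enteric neuron-like nuclei of the same libraries it was at 15768 in WT and 17698 in KO. Without Kcnip4 the members took 0.686% of the UMIs of smooth muscle-like nuclei in WT and 0.522% in KO. The other members at least 2-fold lower were Kcnk3 (0.421, 0.202 to 0.813, from 43 and 12 UMIs), Kcnb2 (0.474, 0.385 to 0.581) and Kcns3 (0.451, 0.259 to 0.752). The limits of each reach above 0.5, as do those of Kcnj3 and Kcnmb2. Kcns3 is a silent subunit that lies outside the rule for named genes and was chosen after its values were seen. These ratios also mix clusters that the libraries filled unequally. In cluster 0 Kcnb2 was at 42.2 CPM in WT and 42.6 in KO and Kcns3 at 32.7 and 48.7, in cluster 1 Kcnb2 was at 76.8 and 122, and in cluster 16, which held most of its UMIs, Kcnb2 was at 657 and 341. The BK pair was less than 2-fold apart, with 0.817 (0.789 to 0.847) for Kcnma1 and 1.01 (0.701 to 1.45) for Kcnmb1. The smooth muscle markers were at 23701 CPM in WT and 20612 in KO in this class, and the fibroblast markers at 1762 and 2728, and their part in the ratios was not tested.

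**Figure D5:**
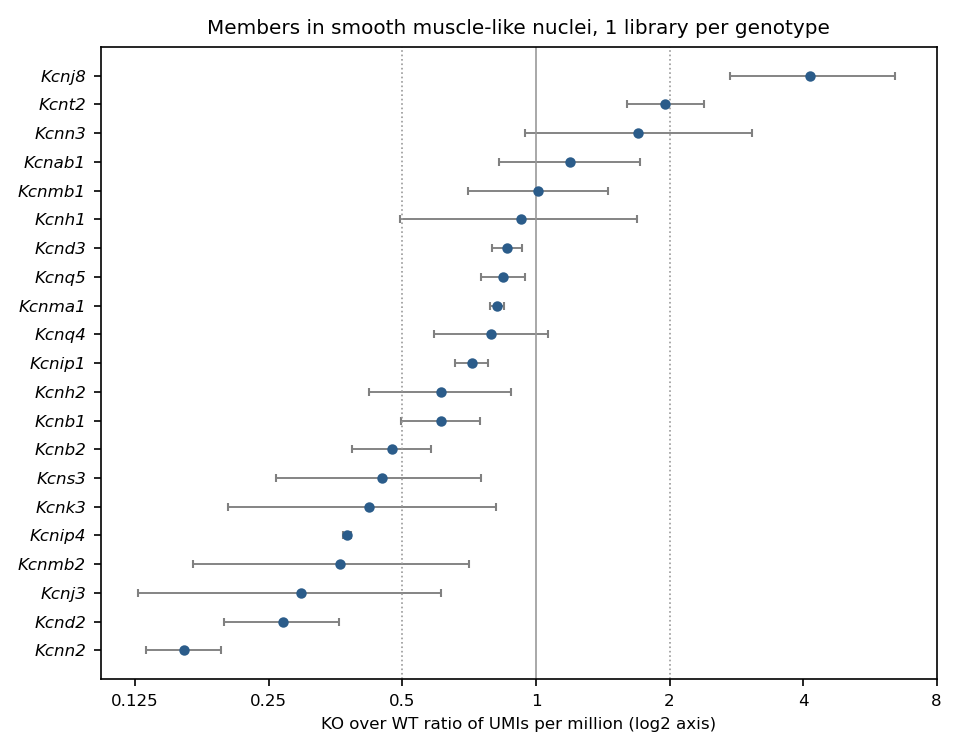
KO over WT ratio of UMI-based CPM in smooth muscle-like nuclei (log2 axis) for the 21 members with at least 50 UMIs, with exact 95% limits that cover counting error only. The dotted lines mark 0.5 and 2. Kcnj8 lies at 4.15, Kcnn2 at 0.161, and the BK pair Kcnma1 and Kcnmb1 lie at 0.817 and 1.01.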

How the data were processed

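Per the labels, bulk RNA and single-nuclei RNA of the muscularis were sequenced. The authors deposited whole-number read counts per gene for the 12 bulk libraries and counts of UMIs per gene and nucleus for 2 libraries. The submitters' processing notes name STAR 2.0.4b, Subread, featureCounts 1.4.5, edgeR, Cell Ranger and the builds GRCm38 and mm10, without their roles or order. Every nuclear gene value was even and was divided by 2, which is an inference from the values.

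The bulk counts were fitted over 12 libraries as 4 groups with edgeR 4.0.16 (R 4.3.3, TMM scaling, quasi-likelihood test, Benjamini-Hochberg over 20886 genes, threshold 0.05), after filtering low counts. DESeq2 1.42.0, limma voom 3.58.1, other scalings, no filter and leaving out each library were the alternatives. The script was tested on simulated data. Between colon and jejunum libraries that share a tag, deviations from the group means correlated at −0.163 to 0.1. For libraries of the same genotype with different tags the range was −0.39 to 0.348. These correlations cannot show whether a shared tag marks the same mouse, so the tag as replicate block was run as an alternative.

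Nuclei with at least 500 UMIs, at least 300 genes and at most 5% mitochondrial UMIs were clustered (scanpy 1.11.5, 2000 variable genes, 30 components, 15 neighbours, resolution 1) without Kcn genes. Scrublet marked 7 WT and 2 KO nuclei, too few for a working caller, and these were kept. The libraries shared 11 barcodes. Clusters 12 and 20 stayed unnamed.

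Members and lists were chosen with earlier results of these data known. Genes named are the BK pair, Kcnj8 and Kcnn3, members called, the 4 smallest p of each comparison, and the leading levels and ratios. A gene that this rule names is not reported here.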

Additional observations from a re-analysis of the deposited data

How the results depend on the processing

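In colon the genotype comparison called 0 members except with DESeq2 (2) and without both libraries that stand apart (1). In jejunum it called 4 with DESeq2, 1 with limma voom, 0 to 2 with a library left out (2 without KO colon t4, 1 without KO jejunum t1) and 1 without both. Between WT segments it called 12 with DESeq2, 13 from the compared libraries alone, 12 without both, and 1 to 9 with a library left out (1 without WT colon t1, 9 without KO colon t4). Between segments labelled KO it called 1 without the filter, 15 with DESeq2, 1 with limma voom, 0 from the compared libraries alone, 7 without both, and 0 to 5 with a library left out. With the tag as replicate block, 2 members were called in WT, 0 in KO and 0 for the difference. Outside the DESeq2 and limma voom genotype comparisons, the share of all genes called under these alternatives is not given here. These counts therefore show only how the calls moved. Scaling by total counts moved the median of all genes by 0.109 (log2) between the KO segments. In nuclei 8 or 9 members were at least 2-fold apart under every alternative run, but not the same ones: Kcns3 was less than 2-fold apart at resolution 0.5 (0.508), resolution 2 (0.517) and with at least 1000 UMIs (0.510), Kcnab1 was at 0.322 at resolution 0.5, and Kcnt2 was at 2.05 with at least 1000 UMIs, where Kcnk3 had too few UMIs.

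Signs changed only for values that passed no threshold. With a library left out, the log2 difference of Kcnma1 ran from −0.14 to 0.36 in colon, from −0.13 to 0.0066 in jejunum and from −0.082 to 0.415 for the difference between segments. That of Kcnn3 ran from −0.32 to 0.20 in colon, from −0.088 to 1.10 in jejunum, from −1.18 to 0.0079 for the difference, from −0.10 to 0.225 between WT segments and from −1.10 to 0.089 between KO segments. That of Kcnmb1 between WT segments ran from −0.15 to 0.14, and the Kcnj8 difference from −0.17 to 0.325. Kcnma1 was at −0.067 in colon and −0.0079 for the difference with limma voom, at −0.16 for the difference with the replicate block, and at 0.0070 in jejunum without both libraries, where Kcnn3 was at −0.0875 and the Kcnj8 difference at −0.16. The cause was not tested. Single counts limit Kcns1 and Kcnmb2, and 1 nuclear library per genotype leaves the ratios without a replicate check.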
